A study of Mus musculus with 26 samples.

Results

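Glycolysis isoenzymes and genes induced by low oxygen were followed across 26 mouse exon arrays. The set held 37 listed genes: glucose transporters, the enzymes from hexokinase to lactate dehydrogenase with their tissue isoforms, a pyruvate dehydrogenase kinase, hypoxia-induced genes and the hypoxia-inducible factors themselves. A gene was kept where at least 4 probe sets named it alone. On the array 18341 genes met that condition, among them 36 of the 37 listed. Gapdh, with 2 such probe sets, was left out. The annotation lists Pkm under its older symbol Pkm2.

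Each array was an Affymetrix Mouse Exon 1.0 ST chip, which reads the RNA of each gene through several probe sets spread over its exons. Of the 26 arrays, 14 (ES1 to ES14) carry the strain label 129S2/SvPas and 12 (ES15 to ES26) carry C57BL/6, both inbred mouse strains. Each sample is labelled as an embryoid body cell, an embryoid body being an aggregate in which embryonic stem (ES) cells differentiate. The labels give no day of culture, oxygen level, medium, treatment, genotype or batch. All values are RMA log2 values, so a difference of 1 is a 2-fold change, and the median probe set of an array lay between 5.32 and 5.51. No detection p-values were used, so values close to that median may lie near background.

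Marker genes differed widely under the common tissue label, and the titles fall into runs that the strain label does not follow. In ES1 to ES12 the mean level of granulocyte and monocyte markers (12 of 14 listed genes tested) lay between 11.43 and 12.14, against 5.58 to 6.65 in the 14 other arrays. Pluripotency markers (8 of 8) lay between 11.10 and 11.51 in ES21 to ES24, between 7.34 and 8.78 in the other arrays from ES13 on, and between 5.30 and 5.87 in ES1 to ES12. Embryonic erythroid markers (6 of 8) averaged 9.55 to 11.90 in ES15 to ES20, 6.99 to 9.62 in ES13 and ES14 and 5.22 to 6.09 in all other arrays, so 1 array of the pair reached the level of ES15 to ES20. Means of fibroblast markers (7 of 7) were 8.77 to 10.49 in ES15 to ES20 and 9.48 to 10.06 in ES25 and ES26, and those of primitive streak markers 7.98 to 9.40 in ES13 and ES14. ES13 and ES14 thus carry the label of ES1 to ES12 without their granulocyte markers, whose means were 5.88 to 6.11. The runs ES1 to ES12, ES13 to ES14, ES15 to ES20, ES21 to ES24 and ES25 to ES26 were set with these patterns known, so levels by run are a description with no test. In such bulk samples fewer cells of a type and less RNA per cell cannot be told apart, and the part of cell makeup in the differences below was not tested.

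Glycolysis splits glucose into pyruvate, yielding ATP without oxygen, and lactate dehydrogenase then converts pyruvate to lactate and restores NAD+. Most of its steps can be run by several isoenzymes, encoded by separate genes and used by different tissues. Under normal oxygen, prolyl hydroxylases (the Egln genes) mark the HIF alpha subunits (Hif1a, Epas1) for destruction. At low oxygen the subunits accumulate, pair with Arnt and bind hypoxia response elements near glucose transporter, glycolysis and angiogenesis genes. ES cells are known for high glycolysis, and granulocytes live largely on it and hold few mitochondria.

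The core letters of the hypoxia response element were looked for in RefSeq promoters of assembly GRCm38.p6, from 250 bases before to 50 bases after each start site. The table held 47 promoters of 33 members, and Slc2a3, Ndrg1 and Epas1 had no entry. ACGTG, read on either strand, stood in 26 of the 47 (55.3%), against 19.6% of all 32851 promoters. GCGTG, the other common core, stood in 27 (57.4%) against 32.4% of all promoters. The palindrome CACGTG counts as a match on both strands. At least 1 promoter of 23 members held ACGTG, and it was absent from these windows of Gpi1, Pfkl, Pfkp, Pfkfb4, Tpi1, Eno1, Eno2, Eno3, Ldhb and Pdk1. A match is a description of letters, not of binding, and these arrays measured no binding. The members were listed in part as hypoxia-induced genes, so their higher share is not an independent result. Promoters were not matched for base content.

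Shown here are the promoters of 5 members that, as described further on, were high in the same 5 arrays of ES1 to ES12. Capitals mark ACGTG or its reverse complement CACGT, and each sequence reads 5′ to 3′ on the gene's strand. They are Aldoc (chr11:78322823-78323122, plus strand, the start site of 2 that has a match), Egln3 (chr12:54203825-54204124, minus strand), Bnip3 (chr7:138909457-138909756, minus strand), Ankrd37 (chr8:45999801-46000100, minus strand) and Pgk1 (chrX:106186850-106187149, plus strand).
Aldoc: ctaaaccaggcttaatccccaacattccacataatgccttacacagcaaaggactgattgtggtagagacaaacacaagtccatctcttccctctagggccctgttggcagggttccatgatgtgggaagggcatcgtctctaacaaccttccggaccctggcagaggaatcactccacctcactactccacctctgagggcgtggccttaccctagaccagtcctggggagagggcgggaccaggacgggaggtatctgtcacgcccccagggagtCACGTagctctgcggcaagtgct
Egln3: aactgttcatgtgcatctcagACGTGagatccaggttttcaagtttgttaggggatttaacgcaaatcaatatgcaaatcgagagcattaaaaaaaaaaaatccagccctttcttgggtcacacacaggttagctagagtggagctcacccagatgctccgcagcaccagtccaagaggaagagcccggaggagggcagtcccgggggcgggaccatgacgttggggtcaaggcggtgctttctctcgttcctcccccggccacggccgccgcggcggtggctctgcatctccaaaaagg
Bnip3: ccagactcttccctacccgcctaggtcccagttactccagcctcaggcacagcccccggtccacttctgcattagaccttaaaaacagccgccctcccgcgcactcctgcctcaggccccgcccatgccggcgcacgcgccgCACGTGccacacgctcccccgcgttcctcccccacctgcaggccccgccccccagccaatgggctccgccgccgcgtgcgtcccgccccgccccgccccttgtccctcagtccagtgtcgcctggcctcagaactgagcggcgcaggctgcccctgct
Ankrd37: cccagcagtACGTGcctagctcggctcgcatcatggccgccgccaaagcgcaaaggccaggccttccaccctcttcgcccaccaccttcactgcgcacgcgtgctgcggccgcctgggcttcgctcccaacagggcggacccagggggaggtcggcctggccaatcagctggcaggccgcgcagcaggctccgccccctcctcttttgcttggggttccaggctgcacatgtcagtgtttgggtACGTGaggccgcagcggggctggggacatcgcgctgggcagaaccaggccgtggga
Pgk1: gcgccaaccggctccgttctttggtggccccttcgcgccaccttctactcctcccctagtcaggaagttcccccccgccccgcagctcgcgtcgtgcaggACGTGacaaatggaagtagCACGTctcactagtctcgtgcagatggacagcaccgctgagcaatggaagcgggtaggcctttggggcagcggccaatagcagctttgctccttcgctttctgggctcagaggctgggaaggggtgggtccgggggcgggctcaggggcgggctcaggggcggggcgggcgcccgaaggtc
In Bnip3 the match is the palindrome, which begins at base -108 from the start site. The matches begin at base -229 in Egln3, at -241 and -6 in Ankrd37, at -150 and -131 in Pgk1, and at 28 within the transcript in Aldoc.

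Between the strain labels, 12 members were higher in 129S2/SvPas, 6 were lower and 18 did not pass the test (limma on all 18341 genes, Benjamini-Hochberg adjusted p under 0.05). The background was 21.1% of all genes higher and 22.1% lower, beside 12 of 36 members higher and 6 of 36 lower. Whether the members differ from all genes in these shares was not tested. The median difference was 0.18 over the members and -0.0015 over all genes. Centring each array on its median moved these medians to 0.31 and 0.13, so small differences depend on the scaling. Hk3, Ero1l, Egln3, Car9, Ndrg1, Pfkp, Hk1, Gpi1, Vegfa, Aldoa, Pgam1 and Hif1a were higher, and P4ha2, Ldhb, Eno3, Eno2, Epas1 and Pfkm were lower.

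The count of calls depended on which arrays entered the contrast. Without ES13 and ES14, 18 members were higher and 7 lower, against a background of 25.2% higher and 25.2% lower. The members called only then were Pfkfb3, Pfkfb4, Tpi1, Pgk1, Ldha and Bnip3, higher by 0.85, 0.95, 0.33, 0.24, 0.20 and 1.04, and Slc2a1, lower with -0.62. With all arrays, the size of the Pfkfb3 difference depended on the summary of its probe sets, as given further on. Without ES1 to ES12, leaving 2 arrays against 12, 0 members passed, against 0.00545% of all genes (1 gene), while 10 members and 1814 genes had an unadjusted p under 0.05 in limma.

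**Figure D1:**
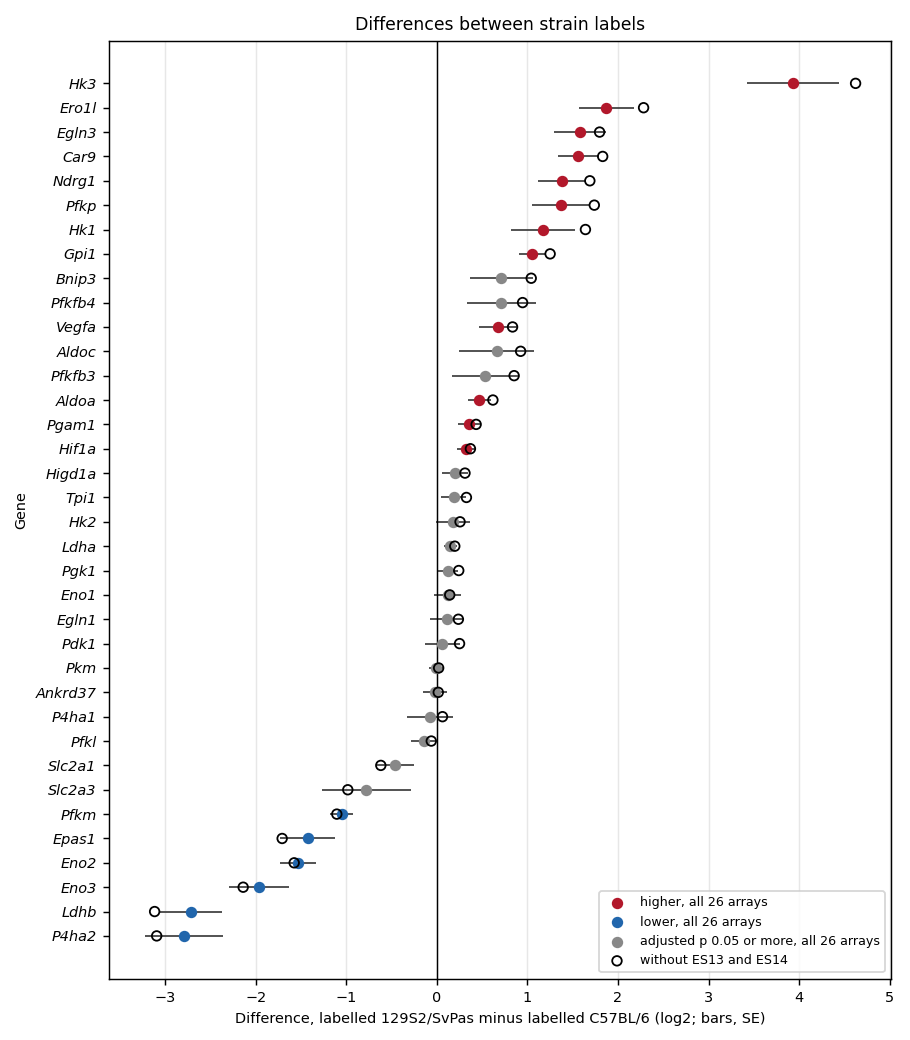
Difference in gene value between the arrays labelled 129S2/SvPas (14) and C57BL/6 (12) for 36 genes, on the log2 scale with its SE as a bar, coloured by call, and open circles for the same difference without ES13 and ES14. Hk3 lies at 3.93 and P4ha2 at -2.79, and leaving out the pair of arrays moves most of the called genes away from 0.

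Ranges by run show which of these genes separate ES1 to ES12 from everything else. Hk1, Hk3, Gpi1, Pfkp, Aldoa, Egln3, Car9, Ndrg1 and Ero1l lay wholly above the 14 other arrays, 9 of 36 members against 7.76% of all genes. Eno3 and Ldhb lay wholly below, 2 of 36 against 6.42%, which is near the background share.

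**Figure D2:**
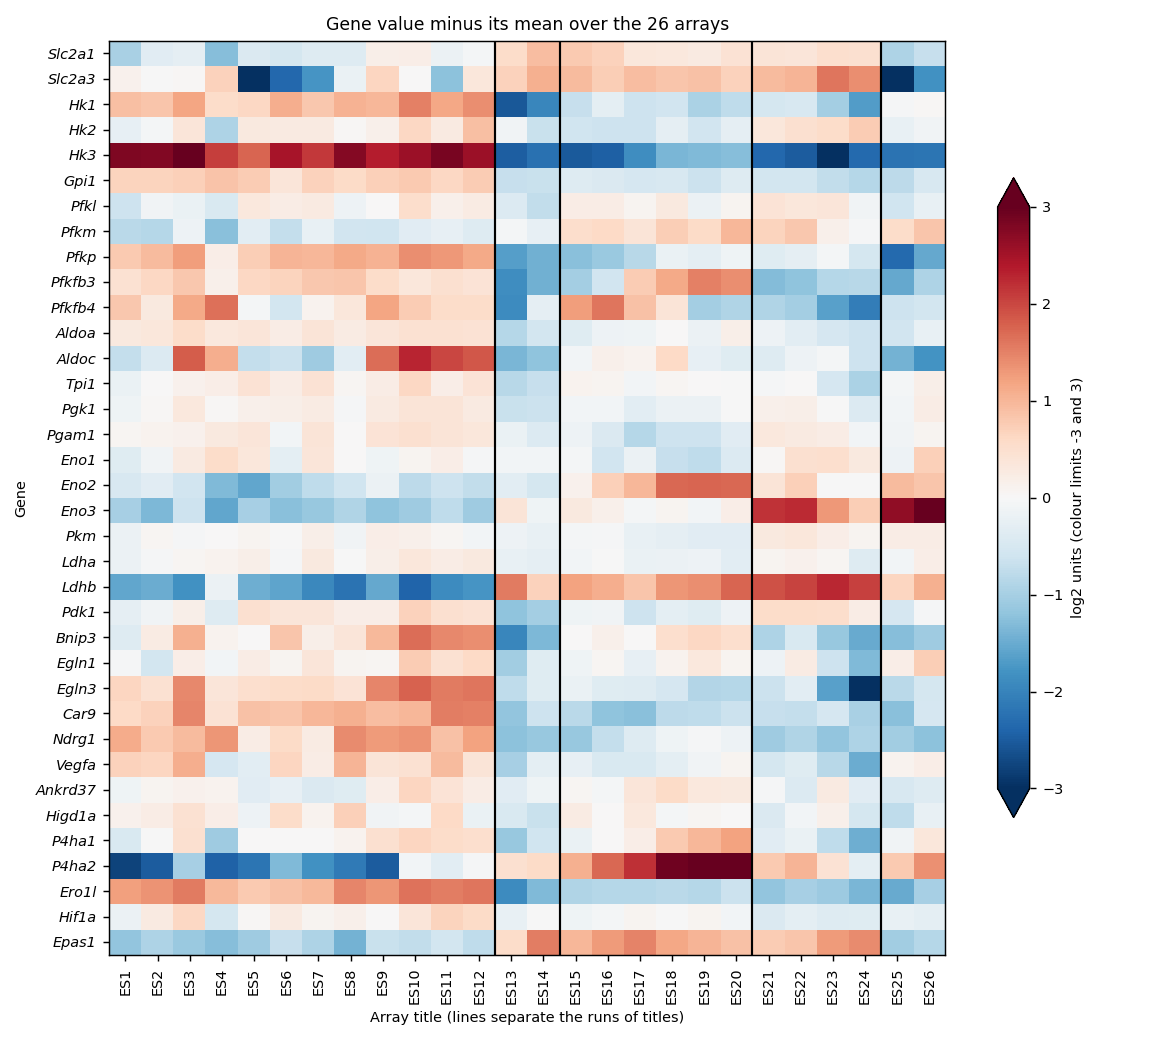
Gene value minus the gene's mean over the 26 arrays for 36 genes (rows) in each array (columns), in log2 units from blue (lower) to red (higher), with lines between the runs of titles and colours that stop at -3 and 3. Hk3 is red throughout ES1 to ES12 and Ldhb blue, palest in ES4, Aldoc changes within that run, Eno3 is reddest in ES25 and ES26, and P4ha2 in ES18 to ES20.

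Glucose enters these cells through facilitative transporters. Slc2a1, the widely expressed transporter GLUT1, ranged from 10.48 to 11.96 with a median of 11.40 in ES1 to ES12. It was 12.32 and 12.69 in ES13 and ES14, 12.04 to 12.55 in ES15 to ES20, 12.14 to 12.28 in ES21 to ES24, and 10.84 and 11.09 in ES25 and ES26. The last pair therefore lay inside the range of ES1 to ES12, and the arrays from ES13 to ES24 above it. The label difference of -0.46 (SE 0.20, adjusted p = 0.0681 in limma) did not pass with all arrays, and did when ES13, ES14, ES25 or ES26 alone was left out.

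Slc2a3, the high-affinity transporter GLUT3 of neurons, ES cells and white blood cells, had the same pair of low arrays and others besides. It lay between 11.73 and 12.64 in all 12 arrays from ES13 to ES24, and at 7.91 and 9.23 in ES25 and ES26. Within ES1 to ES12 it was 7.95 in ES5, 8.70 in ES6, 9.27 in ES7 and 9.83 in ES11, and between 10.86 and 11.75 in the other 8. Its SD there, 1.24, compares with a median of 0.29 over all genes. The label difference was -0.78 (SE 0.49, adjusted p = 0.215 in limma), and it passed with ES25 left out (-1.10, adjusted p = 0.0374 in limma).

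Hexokinases trap glucose as glucose 6-phosphate, and the 3 isoenzymes measured went different ways. Hk3, the hexokinase of white blood cells, was 10.49 to 11.74 in ES1 to ES12 (median 11.32), 6.29 and 6.52 in ES13 and ES14, and 5.75 to 7.47 in the 12 others. No array of ES1 to ES12 overlapped the rest, and the granulocyte markers moved with Hk3 between the runs. Means were 10.57 ± 1.80 (SD, n = 14) and 6.64 ± 0.54 (SD, n = 12) by label, a difference of 3.93 (SE 0.51, adjusted p = 1.05e-06 in limma), and all 21 probe sets were higher. The lowest Hk3 values lay near the median probe set, so the size of this difference is uncertain.

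Hk1, the hexokinase of most tissues and of brain, was 10.29 to 11.25 in ES1 to ES12. ES13 and ES14 held the lowest values of the series, 7.19 and 7.79, though they share the label. In ES15 to ES20 it was 8.79 to 9.45, in ES21 to ES24 9.22, 9.26, 8.73 and 8.06, and in ES25 and ES26 9.70 and 9.77. Arrays labelled 129S2/SvPas were higher by 1.17 (SE 0.35, adjusted p = 0.00848 in limma), and by 1.64 without ES13 and ES14.

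Hk2, the insulin- and hypoxia-responsive hexokinase of muscle and tumours, was the most even of the 3. Its values were 9.30 to 11.12 in ES1 to ES12, 10.12 and 9.54 in ES13 and ES14, 9.60 to 9.96 in ES15 to ES20, 10.56 to 10.99 in ES21 to ES24, and 10.00 and 10.12 in ES25 and ES26. It did not pass between labels (0.18, SE 0.19, adjusted p = 0.471 in limma), but did with array weights (0.45, adjusted p = 0.0228). ES21 to ES24, the arrays of high pluripotency markers, lay wholly above ES15 to ES20.

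An array does not allow the level of a gene to be set against that of another, but the difference of a pair within an array can be compared between arrays. Hk2 minus Hk1 was -0.99 to 0.14 in ES1 to ES12 and 0.16 to 2.93 in all others, with the highest values in ES13 (2.93) and ES24. Hk3 minus Hk1 was 0.08 to 0.97 in ES1 to ES12 and -3.21 to -0.90 elsewhere. The balance thus moved from Hk2 toward Hk1 and, more so, toward Hk3 in ES1 to ES12.

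Phosphoglucose isomerase, Gpi1, has no isoenzyme and was among the sharpest separators. It was 12.45 to 12.93 in ES1 to ES12 and 11.22 to 11.70 in the 14 others, with an SD of 0.12 inside ES1 to ES12. The labels differed by 1.05 (SE 0.15, adjusted p = 2.3e-06 in limma), and 32 of 34 probe sets were higher.

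Phosphofructokinase, the committed step, is a tetramer built from liver (Pfkl), muscle (Pfkm) and platelet (Pfkp) subunits. Pfkp was 10.41 to 11.60 in ES1 to ES12, 8.54 and 8.75 in ES13 and ES14, 8.95 to 10.07 in ES15 to ES20, 9.68 to 10.14 in ES21 to ES24, and 7.86 and 8.67 in ES25 and ES26. Within ES15 to ES20, ES15 and ES16 were lowest at 8.95 and 9.08. It was higher in 129S2/SvPas by 1.37 (SE 0.32, adjusted p = 0.00102 in limma).

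Pfkm went the opposite way. Its values were 7.82 to 8.92 in ES1 to ES12, 9.01 and 8.82 in ES13 and ES14, 9.46 to 10.06 in ES15 to ES20, 9.03 to 9.89 in ES21 to ES24, and 9.61 and 9.89 in ES25 and ES26. It was lower in 129S2/SvPas with a difference of -1.05 (SE 0.13, adjusted p = 4.23e-07 in limma), in 23 of 24 probe sets, and cardiac and skeletal muscle markers were low everywhere (means of 5.61 to 6.69).

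Pfkl did not pass (-0.15, SE 0.13, adjusted p = 0.407 in limma) and lay between 9.34 and 10.60 in all arrays. With it as the common partner, Pfkp minus Pfkl was 0.56 to 1.57 in ES1 to ES12 and -1.62 to 0.01 in all others. Pfkm minus Pfkl was -1.94 to -0.95 in ES1 to ES12, -1.21 to -0.09 in ES13 to ES24, and 0.13 and 0.04 in ES25 and ES26. ES25 and ES26 thus had the highest Pfkm relative to Pfkl, and with -1.62 and -1.18 they were low for Pfkp minus Pfkl.

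Pfkfb3 and Pfkfb4 make fructose 2,6-bisphosphate, the allosteric activator of phosphofructokinase, and both are known HIF targets. Pfkfb3 was 9.46 to 10.16 in ES1 to ES12, 7.46 and 7.87 in ES13 and ES14, 8.30 and 8.75 in ES15 and ES16, and 10.07, 10.45, 10.82 and 10.71 in ES17 to ES20. In ES21 to ES24 it was 8.03 to 8.48, and in ES25 and ES26 7.79 and 8.39. The 4 arrays ES17 to ES20 therefore lay inside or above the range of ES1 to ES12. Of its 32 probe sets, 0 were higher and 4 lower in 129S2/SvPas with all arrays. Its label difference was 0.54 with the gene value used here. With the median of all its probe sets it was 0.053 (adjusted p = 0.911 in limma), and with their mean 0.16 (adjusted p = 0.715 in limma).

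Pfkfb4 showed another order among the same arrays. It was highest outside ES1 to ES12 in ES15 and ES16, at 9.66 and 9.99, then 9.29, 8.79, 7.37 and 7.49 in ES17 to ES20, and 7.49, 7.39, 6.77 and 6.32 in ES21 to ES24. ES13 and ES14 stood at 6.51 and 8.13, ES25 and ES26 at 7.78 and 7.84, and ES1 to ES12 between 7.84 and 10.05. Pfkfb4 minus Pfkfb3 therefore ran from 1.36 in ES15 and 1.25 in ES16 to -3.45 in ES19 and -3.22 in ES20, the widest span of the 13 pairs inside a run of titles. Neither gene passed between labels with all arrays (Pfkfb3 0.54, SE 0.37, adjusted p = 0.254; Pfkfb4 0.71, SE 0.38, adjusted p = 0.135, limma), and both did without ES13 and ES14.

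Aldolase splits fructose 1,6-bisphosphate, with Aldoa the muscle and general form and Aldoc the brain form. Aldoa, the steadiest member in ES1 to ES12, lay there between 12.73 and 13.05 with an SD of 0.10. Elsewhere it was 11.66 and 11.96 in ES13 and ES14, 12.15 to 12.68 in ES15 to ES20, 11.89 to 12.35 in ES21 to ES24 and 11.93 and 12.29 in ES25 and ES26. It was higher in 129S2/SvPas by 0.47 (SE 0.13, adjusted p = 0.00372 in limma). Another 5 probe sets of Aldoa also name the testis gene Aldoart1 and were left out.

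Aldoc was the most variable member in ES1 to ES12, with an SD of 1.31. It was 10.63 in ES3, 9.92 in ES4, 10.50, 11.12, 10.83 and 10.69 in ES9 to ES12, and between 7.77 and 8.50 in the other 6 arrays of that run. All other arrays lay between 7.03 and 9.43, lowest in ES25 and ES26 (7.41 and 7.03) and at 7.46 and 7.61 in ES13 and ES14. Aldoc minus Aldoa spanned -5.12 to -1.85 within ES1 to ES12 alone. The label difference of 0.66 (SE 0.42, adjusted p = 0.212 in limma) did not pass.

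Triosephosphate isomerase (Tpi1) and phosphoglycerate kinase (Pgk1) carry the pathway to its first ATP. Tpi1 was 11.94 to 12.74 in ES1 to ES12, 11.31 and 11.45 in ES13 and ES14, 12.06 to 12.23 in ES15 to ES20, 12.10, 12.14, 11.62 and 11.18 in ES21 to ES24, and 12.07 and 12.31 in ES25 and ES26. ES13, ES14 and ES24 were the low arrays. It did not pass between labels (0.19, SE 0.14, adjusted p = 0.3 in limma), but did with arrays centred (0.32, adjusted p = 0.0441).

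Pgk1 was 12.40 to 12.91 in ES1 to ES12, 11.85 and 11.89 in ES13 and ES14, the lowest arrays, and 12.13 to 12.75 over the 12 C57BL/6 arrays. The difference of 0.12 (SE 0.11, adjusted p = 0.376 in limma) did not pass. Pgk1 passed with the mean of all its probe sets (0.43, adjusted p = 0.0151), with arrays centred (0.26, adjusted p = 0.0374) and with array weights (0.26, adjusted p = 0.00589), all in limma. A probe set of Pgk1 outside the brighter part of its probe sets differed from this pattern and is described with the other probe sets.

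Pgam1, the phosphoglycerate mutase of most tissues, was 11.54 to 12.12 in ES1 to ES12 and 11.43 and 11.22 in ES13 and ES14. ES15 to ES20 were lower, at 10.78 to 11.48, than ES21 to ES24 at 11.55 to 11.96, and ES25 and ES26 were 11.54 and 11.71. It was higher in 129S2/SvPas by 0.35 (SE 0.12, adjusted p = 0.022 in limma). This call was lost with the mean (adjusted p = 0.0778) or median (0.12) over all its probe sets and under quantile normalization (0.143).

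Enolase has a general form (Eno1), a neuronal form (Eno2) and a muscle form (Eno3). Eno3 was 6.79 to 7.73 in ES1 to ES12, 8.74 and 8.23 in ES13 and ES14, 8.28 to 8.64 in ES15 to ES20, 10.53, 10.58, 9.65 and 9.09 in ES21 to ES24, and 11.00 and 11.39 in ES25 and ES26. The runs from ES15 to ES20, ES21 to ES24 and ES25 to ES26 did not overlap, in that rising order. By label the difference was -1.97 (SE 0.33, adjusted p = 2.37e-05 in limma), seen in all 15 probe sets, while muscle markers averaged 6.02 to 6.06 in ES25 and ES26.

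Eno2 was 4.83 to 6.22 in ES1 to ES12, around the median of the arrays, and 6.08 and 5.86 in ES13 and ES14. It was 6.52, 7.12 and 7.40 in ES15, ES16 and ES17 and 8.12, 8.15 and 8.13 in ES18 to ES20, 6.38 to 7.11 in ES21 to ES24, and 7.34 and 7.23 in ES25 and ES26. The highest arrays were not those of the highest neuron markers, which averaged 6.29 to 6.49 in ES15 to ES20 and 7.29 to 7.66 in ES21 to ES24. Between labels Eno2 differed by -1.53 (SE 0.20, adjusted p = 1.06e-06 in limma).

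Eno1 was read by 7 probe sets, while 22 more also name predicted loci and were left out, so its values between 7.41 and 8.88 are uncertain. It did not pass (0.12, SE 0.15, adjusted p = 0.563 in limma), but did with the mean of all its probe sets (0.52, adjusted p = 0.00387). With it as partner, Eno3 minus Eno1 was -1.92 to -0.46 in ES1 to ES12, 0.15 to 2.33 in ES13 to ES24, and 2.99 and 2.51 in ES25 and ES26.

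Pkm, pyruvate kinase of muscle and of proliferating cells, was the flattest member over the whole series, from 12.74 to 13.42. Its label difference was -0.012 (SE 0.075, adjusted p = 0.918 in limma), and its sign changed with the summary of probe sets and the scaling. ES15 to ES20 (12.74 to 13.04) lay wholly below ES21 to ES24 (13.15 to 13.42). None of its tested probe sets was called as differing from the gene value by more than 1 log2 unit between labels (limma treat, adjusted p under 0.05). Probe set positions were not used, so which of its exons were tested is not known.

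Lactate dehydrogenase is a tetramer of Ldha, the form favouring lactate production, and Ldhb, the heart form favouring pyruvate. Ldha hardly moved, from 12.27 to 13.00 over all arrays, and did not pass (0.15, SE 0.073, adjusted p = 0.109 in limma), but did with arrays centred (0.28, adjusted p = 0.00207). Ldhb was 5.86 to 8.08 in ES1 to ES12 (median 6.58), with the highest of these, 8.08, in ES4 and the next at 6.78. It was 9.81 and 8.96 in ES13 and ES14, 9.08 to 10.01 in ES15 to ES20, 10.17 to 10.53 in ES21 to ES24, and 8.90 and 9.33 in ES25 and ES26.

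No array of ES1 to ES12 reached the lowest Ldhb value of the rest. Its label difference was -2.72 (SE 0.34, adjusted p = 7.14e-07 in limma), in 15 of 16 probe sets. The lowest Ldhb values lay near the median probe set, so the size of this difference is uncertain. Ldhb minus Ldha was -7.14 to -4.69 in ES1 to ES12 and -3.68 to -1.96 elsewhere, with -2.56 to -1.96 in ES21 to ES24. The lactate dehydrogenase balance thus followed Ldhb, since Ldha was nearly flat.

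Pdk1, the kinase that keeps pyruvate out of the citric acid cycle and a HIF target, was 8.58 to 9.66 in ES1 to ES12. It was 7.77 and 7.97 in ES13 and ES14, the lowest of all arrays, 8.36 to 8.87 in ES15 to ES20, 9.21 to 9.52 in ES21 to ES24, and 8.47 and 8.94 in ES25 and ES26. It did not pass (0.061, SE 0.19, adjusted p = 0.83 in limma).

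**Figure D3:**
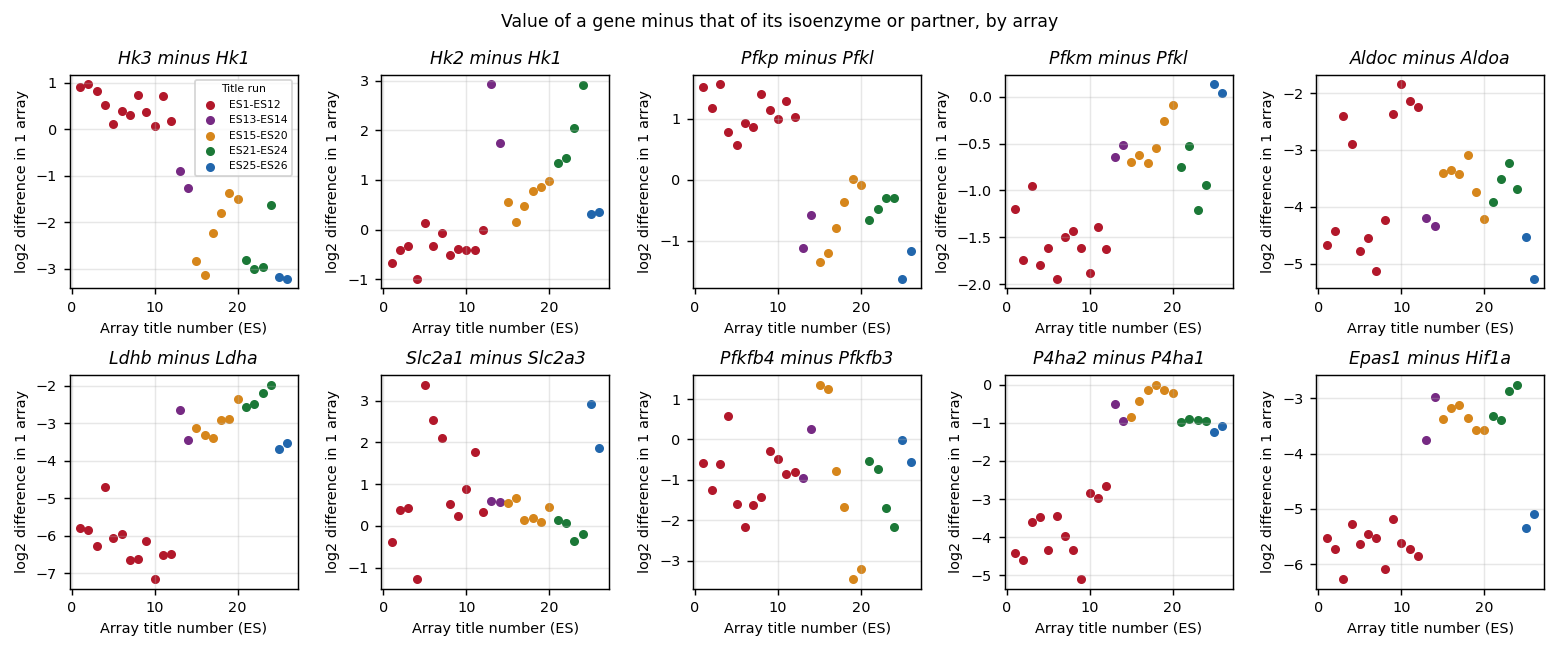
Value of a gene minus that of its isoenzyme or partner in the same array (vertical axis, log2) for 10 pairs, against the number in the array title, coloured by run of titles. Hk3 minus Hk1, Pfkp minus Pfkl and Ldhb minus Ldha separate ES1 to ES12 from all other arrays, while Epas1 minus Hif1a puts ES25 and ES26, at -5.34 and -5.08, beside them, and levels of 0 have no meaning of their own.

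Among the members that are hypoxia targets outside glycolysis, Ero1l, an oxidase of the endoplasmic reticulum that forms disulfide bonds, was the furthest above between labels. It was 11.97 to 12.79 in ES1 to ES12 (median 12.51), 9.30 and 9.85 in ES13 and ES14, 10.28 to 10.52 in ES15 to ES20, 9.80 to 10.18 in ES21 to ES24, and 9.67 and 10.19 in ES25 and ES26. ES1 to ES12 stood more than 1 log2 unit above every other array. The labels differed by 1.87 (SE 0.30, adjusted p = 1.74e-05 in limma), in all 20 probe sets.

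Egln3 is the prolyl hydroxylase whose transcription hypoxia raises, and so part of a feedback on HIF. It lay between 9.62 and 9.91 in 7 arrays of ES1 to ES12 and at 10.71, 10.73, 11.03, 10.83 and 10.87 in ES3, ES9, ES10, ES11 and ES12. Elsewhere it was 8.50 and 8.90 in ES13 and ES14, 8.39 to 9.06 in ES15 to ES20, 8.62, 8.95, 7.63 and 6.18 in ES21 to ES24, and 8.47 and 8.74 in ES25 and ES26. Egln3 was higher in 129S2/SvPas by 1.58 (SE 0.29, adjusted p = 8.54e-05 in limma).

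Egln1, the main prolyl hydroxylase at normal oxygen, did not pass (0.11, SE 0.19, adjusted p = 0.67 in limma). It was 8.90 to 10.20 in ES1 to ES12 and 8.12 (ES24) to 10.19 (ES26) in the rest. Egln3 minus Egln1 was 0.03 to 1.24 in ES1 to ES12, -0.19 to 0.10 in ES13 and ES14, and -1.94 to -0.26 in every array labelled C57BL/6, so ES13, at 0.10, lay inside the range of ES1 to ES12, and ES14, at -0.19, between that range and the C57BL/6 arrays.

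Car9, a carbonic anhydrase at the cell surface and a marker of hypoxic tumours, was 6.89 to 8.00 in ES1 to ES12. All 14 other arrays lay between 5.20 and 5.97, close to the median probe set, so Car9 may be near background there. The labels differed by 1.56 (SE 0.23, adjusted p = 3.81e-06 in limma).

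Ndrg1, a stress-responsive gene induced by hypoxia and by differentiation, was 9.25 to 10.45 in ES1 to ES12. Its values were 7.79 and 7.90 in ES13 and ES14, 7.89 and 8.30 in ES15 and ES16, 8.63 to 8.99 in ES17 to ES20, 7.84 to 8.12 in ES21 to ES24, and 7.98 and 7.81 in ES25 and ES26. It was higher by 1.39 (SE 0.27, adjusted p = 0.000128 in limma) in 129S2/SvPas, in all 19 probe sets.

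Vegfa, the growth factor that draws blood vessels, overlapped between the runs. It was 8.90 (ES4) to 10.50 (ES3) in ES1 to ES12, 8.41 and 9.12 in ES13 and ES14, 8.97 to 9.50 in ES15 to ES20, 7.91 to 9.06 in ES21 to ES24, and 9.53 and 9.60 in ES25 and ES26. The label difference was 0.68 (SE 0.21, adjusted p = 0.0111 in limma), with 11 probe sets higher and 2 lower of 23.

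Bnip3, which directs mitochondria to autophagy, did not pass with all arrays (0.71, SE 0.35, adjusted p = 0.101 in limma). It was 9.05 to 11.12 in ES1 to ES12, 7.48 and 8.10 in ES13 and ES14, 9.45 to 10.06 in ES15 to ES20, 7.93 to 8.98 in ES21 to ES24, and 8.16 and 8.38 in ES25 and ES26. ES15 to ES20 thus lay inside the range of ES1 to ES12 and above the other arrays. With ES13 or ES14 alone left out it passed (0.89, adjusted p = 0.0189, and 0.84, adjusted p = 0.0397, in limma).

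Ankrd37 and Higd1a, an ankyrin repeat gene and a mitochondrial inner membrane gene that hypoxia induces, were dim and did not pass with the gene values used here. Ankrd37 lay between 6.65 and 7.78 in all arrays (difference -0.024, SE 0.13, adjusted p = 0.909 in limma). Higd1a, with 5 probe sets, lay between 5.69 and 7.16 (0.20, SE 0.14, adjusted p = 0.278 in limma). Higd1a passed as higher with the median (0.36, adjusted p = 0.0351) or mean (0.34, adjusted p = 0.0255) of all its probe sets, with arrays centred (0.33, adjusted p = 0.0428) and under quantile normalization (0.36, adjusted p = 0.037), all in limma.

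The collagen prolyl hydroxylase subunits P4ha1 and P4ha2, both HIF targets needed to fold collagen, took separate ways. P4ha2 was 5.17 to 7.91 in ES1 to ES12, with 6.94 in ES3, 6.61 in ES6, 5.43 in ES9 and 7.86, 7.62 and 7.91 in ES10 to ES12. It was 8.41 and 8.50 in ES13 and ES14, 8.99, 9.66, 10.13, 10.85, 10.92 and 11.05 in ES15 to ES20, 7.63 to 8.96 in ES21 to ES24, and 8.72 and 9.30 in ES25 and ES26. Its label difference was -2.79 (SE 0.43, adjusted p = 8.93e-06 in limma). Fibroblast markers were also highest in ES17 to ES20, at 10.07 to 10.49, and lowest in ES1 to ES12, at 6.20 to 7.07. They did not follow P4ha2 in every run. In ES25 and ES26 they averaged 9.48 to 10.06, near ES17 to ES20, while P4ha2 was lower than in ES17 to ES20. The lowest P4ha2 values lay near the median probe set, so the size of its difference is uncertain.

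P4ha1 did not pass (-0.077, SE 0.25, adjusted p = 0.835 in limma). It was 8.97 to 10.70 in ES1 to ES12, 8.93 and 9.45 in ES13 and ES14, 9.85 to 11.27 in ES15 to ES20, 8.59 to 9.84 in ES21 to ES24, and 9.95 and 10.38 in ES25 and ES26. P4ha2 minus P4ha1 was -5.09 to -2.65 in ES1 to ES12 and -1.23 to 0.00 in all others.

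The factors themselves differed in opposite directions. Hif1a, the widely expressed alpha subunit, was 10.98 to 12.17 in ES1 to ES12, 11.28 and 11.49 in ES13 and ES14, 11.37 to 11.59 in ES15 to ES20, 11.07 to 11.20 in ES21 to ES24, and 11.28 and 11.21 in ES25 and ES26. Its small difference of 0.33 (SE 0.11, adjusted p = 0.0153 in limma) was lost under quantile normalization (0.16, adjusted p = 0.274). HIF is set largely by protein stability, which these RNA values do not measure.

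Epas1, the alpha subunit known from endothelium and other restricted cell types, was low in ES25 and ES26 as well as in ES1 to ES12. Its values in ES25 and ES26, 5.94 and 6.13, lay inside the span of ES1 to ES12, 5.57 to 6.44, while it read 7.53 to 8.51 in all arrays from ES13 to ES24. Epas1 differed by -1.43 between labels (SE 0.30, adjusted p = 0.000408 in limma), in 22 of 28 probe sets, and its low values too were near the median probe set. Epas1 minus Hif1a was -6.26 to -5.19 in ES1 to ES12, -5.34 and -5.08 in ES25 and ES26, and -3.76 to -2.75 in ES13 to ES24.

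Within ES1 to ES12, which share label, tissue label and granulocyte markers, several hypoxia genes still separated the same arrays. The median SD there was 0.33 over the members and 0.29 over all genes. The SD of 7 members lay above the 90th percentile of all genes, 0.50: Aldoc, Slc2a3, P4ha2 (1.01), Bnip3 (0.66), Pfkfb4 (0.60), Egln3 (0.56) and Ldhb (0.55). For Ldhb the array farthest from the others was ES4. At the other end stood Pkm and Gpi1, at 0.12 each, beside Aldoa.

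The 5 arrays with the highest Aldoc in that run were ES3, ES9, ES10, ES11 and ES12. ES4 came next at 9.92, and the others lay at 8.50 or below. Slc2a1, Pgk1, Bnip3, Egln3, Ankrd37 and P4ha1 had the same 5 highest arrays, 6 of the 35 other members against 1.53% of all genes, a pattern chosen after the values were seen. For Bnip3 these arrays read 10.52, 10.43, 11.12, 10.88 and 10.83, and the other 7 lay between 9.05 and 10.27. P4ha1 read 10.54, 10.52, 10.70, 10.59 and 10.55 in them and 8.97 to 10.17 in the others. Ankrd37 spanned only 6.71 to 7.78 and Pgk1 only 12.40 to 12.91, and Slc2a1 read 11.51 in ES3 but 11.42 in ES2. For these genes the order rests on small steps.

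Slc2a3, Ndrg1 and Pfkfb4 followed another order. ES5, ES6 and ES7 were low for each, with Ndrg1 at 9.25, 9.61 and 9.26 and Pfkfb4 at 8.34, 7.84 and 8.50 beside the Slc2a3 values already given. ES4 was the highest array of the run for Slc2a3 (11.75), Pfkfb4 (10.05), Gpi1, Eno1 and Ldhb. It was the lowest for P4ha1, Vegfa, Slc2a1, Hk1, Hk2, Pfkm, Pfkp, Pfkfb3, Eno3, Pdk1, Egln3, Car9 and Hif1a. ES4 thus lay at an end of the run for many members, not for a few hypoxia targets alone. The hypoxia targets therefore did not share a single order over these arrays. The labels give no property that separates these arrays.

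**Figure D4:**
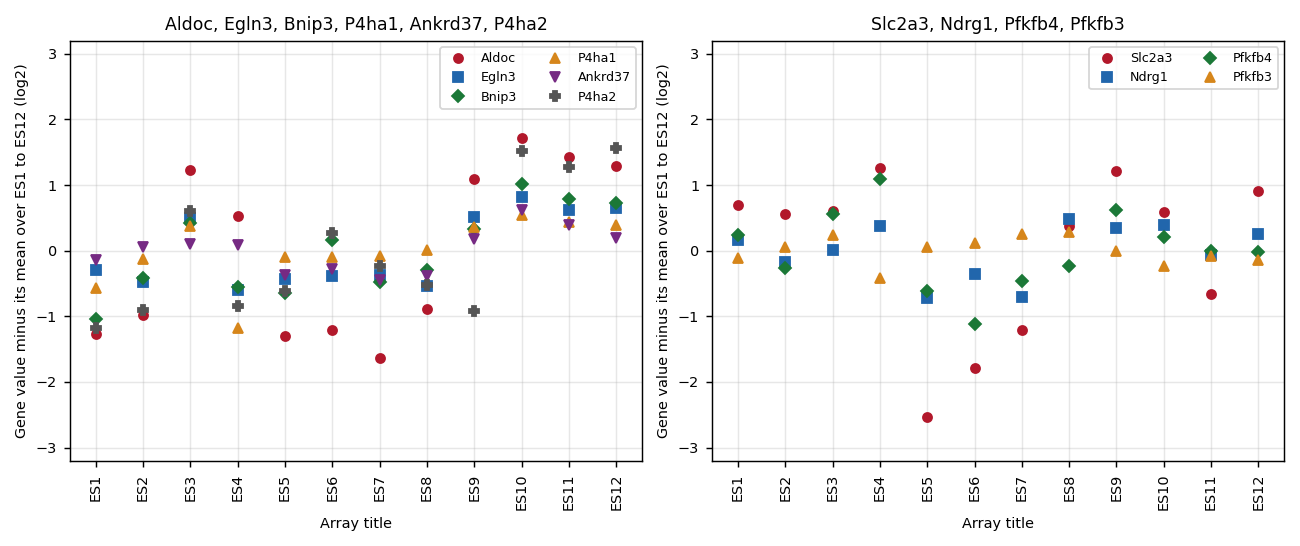
Gene value minus its mean over ES1 to ES12 (vertical axis, log2) for each array of that run, with 6 genes in the left panel and 4 in the right, each by its own symbol. Aldoc, Egln3, Bnip3 and P4ha1 are above their mean in ES3 and ES9 to ES12, while Slc2a3 is lowest in ES5 (7.95) and ES6 (8.70) and highest in ES4 (11.75). P4ha2, also in the left panel, is below its mean in ES9 (5.43).

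Among the arrays without granulocyte markers, members were compared with ES21 to ES24, the arrays of highest pluripotency markers. ES13 and ES14 lay wholly below ES21 to ES24 for 15 of 36 members, against 20.3% of all genes: Hk1, Hk2, Pfkl, Pfkm, Pfkp, Pfkfb3, Aldoc, Pgk1, Pgam1, Eno1, Eno2, Eno3, Pkm, Ldhb and Pdk1. They lay wholly above for Slc2a1 and Hif1a, 2 of 36 against 11.4%.

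ES15 to ES20 lay wholly below ES21 to ES24 for 8 members against 12.7% of all genes: Slc2a3, Hk2, Pgam1, Eno1, Eno3, Pkm, Ldhb and Pdk1. They lay wholly above for 5 members against 11.8%: Bnip3, P4ha1, P4ha2, Ero1l and Hif1a.

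ES25 and ES26 lay wholly below ES21 to ES24 for 9 members against 16.1% of all genes: Slc2a1, Slc2a3, Hk2, Pfkl, Pfkp, Aldoc, Ldhb, Pdk1 and Epas1. They lay wholly above for 8 against 18.0%: Hk1, Hk3, Pfkfb4, Eno2, Eno3, Vegfa, P4ha1 and Hif1a. Hk3 was dim in both runs, at 6.53 and 6.56 in ES25 and ES26 and 5.75 to 6.43 in ES21 to ES24.

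How far probe sets repeated the gene value varied between members. Of 693 member probe sets, 234 were higher and 125 lower in 129S2/SvPas (limma over 631748 probe sets, adjusted p under 0.05), against 28.8% of all probe sets called in either direction. That share includes 319612 probe sets with no gene symbol, so it is not a like background for member probe sets. Relative to their own gene, 3 of 574 member probe sets differed by more than 1 log2 unit (limma treat, adjusted p under 0.05), against 0.66% of 156023. The 3 lay in Hk3, P4ha2 and Pgk1, and the count was larger under other settings, as given at the end.

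A probe set of Hk3 stayed between 9.38 and 10.30 in ES13 to ES26, where the gene value was 5.75 to 7.47, and was 10.64 to 11.54 in ES1 to ES12. Relative to its gene its difference was -2.75 (adjusted p = 0.00793, limma treat). A probe set of P4ha2 hardly followed its gene, with 7.87 to 8.78 in ES1 to ES12 and 7.60 to 8.51 in the rest (3.10 relative to the gene, adjusted p = 0.00918, limma treat).

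The Pgk1 probe set was 7.65 to 13.49 in ES1 to ES12, with 13.49 in ES1, 13.02 in ES4 and 7.65 in ES5, and 5.22 to 6.98 in all others, while the gene value was nearly flat (3.34, adjusted p = 0.0299, limma treat). Probe set positions were not used here, and whether the 3 read another transcript was not tested.

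Genes of the same pathways that were not members were taken from 5 lists, whose counts stand beside the background of 21.1% of all genes higher and 22.1% lower. Of 9 other genes of glucose, lactate and pyruvate transport, 5 were higher and 1 lower in 129S2/SvPas, with a median difference of 1.02. Mpc1, a subunit of the mitochondrial pyruvate carrier, was higher by 2.07 (SE 0.33, adjusted p = 1.13e-05 in limma), and Slc2a6, a transporter of white blood cells, by 1.70 (SE 0.26, adjusted p = 8.43e-06 in limma). Slc16a7, a monocarboxylate carrier, was higher by 1.61, and Slc2a4, the insulin-responsive transporter GLUT4, was lower with -1.21 and reached 7.59 to 7.80 only in ES15 to ES20.

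Of 22 other glycolysis and pyruvate enzymes, 3 were higher and 7 lower, with a median of -0.10. Pdk4, the pyruvate dehydrogenase kinase of fasting, was lower with -2.89 (SE 0.45, adjusted p = 9.39e-06 in limma) and lay at 10.2 to 10.9 in ES25 and ES26. Pdk2 was lower with -1.03 and Pdk3 higher by 0.65, beside Pdk1, which did not pass. Adpgk, the ADP-dependent glucokinase, was higher by 1.30.

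Of 13 genes of gluconeogenesis and the pentose phosphate pathway, 9 were higher and 2 lower, with a median of 0.86. Fbp1, which reverses phosphofructokinase, was higher by 2.41 (SE 0.49, adjusted p = 0.000279 in limma) and ran from 6.04 to 10.1 inside ES1 to ES12. Rpia and Pgd, enzymes of the pentose phosphate pathway that feeds NADPH to the granulocyte oxidase, were higher by 1.99 and 1.22, and Pck2, the mitochondrial PEP carboxykinase, by 1.53.

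Of 13 regulators of HIF, 3 were higher and 4 lower, with a median of -0.17. Hif3a, an alpha subunit that can oppose the others, was lower with -1.72 (SE 0.45, adjusted p = 0.00318 in limma) and highest, at 8.51 to 9.43, in ES15 to ES20. Arnt2, a partner subunit, was lower with -0.80, and Hif1an, the asparagine hydroxylase that restrains HIF, with -0.54. Siah2, a ligase that degrades prolyl hydroxylases, was higher by 0.61.

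Of 31 other hypoxia targets, 9 were higher and 7 lower, near the background shares of 21.1% and 22.1%, with a median of 0.17. Without ES13 and ES14 the counts were 13 and 7, against 25.2% and 25.2%. Cxcr4, the chemokine receptor of white blood cells and progenitors, was higher by 3.81 (SE 0.37, adjusted p = 2.95e-08 in limma) and also lay at 9.67 and 9.79 in ES13 and ES14. Loxl2 and Plod2, which crosslink and hydroxylate collagen, were lower with -3.49 and -2.66, on the side of P4ha2, and Tmem45a with -2.78.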

How the data were processed

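RNA of 26 mouse samples was measured on Affymetrix Mouse Exon 1.0 ST arrays after a column extraction and 2-round amplification, per the labels' protocols. The values deposited by the authors are RMA log2 values per probe set, made in Affymetrix Expression Console with an extended-exon analysis, per the labels. The log base was taken as 2 from the range, 0.831 to 15.6. Its version and the genome build were not given in the sources used here. Normalization by RMA brings all arrays to a common distribution, which can hide shifts shared by most genes. Arrays give no read depth, and their number limits the precision.

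There were 631748 probe sets and 0 missing values. The platform annotation gave 306069 probe sets 1 symbol, 6067 several and 319612 none. Of 21757 symbols, 17747 were current in RefSeq GRCm38.p6, 3725 were updated through a synonym and 285 kept. A gene value is the median of the brighter 50% (rounded up) of its probe sets by mean over the 26 arrays. Tests covered the 18341 genes that had 4 or more.

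Differences are 129S2/SvPas minus C57BL/6, tested in R 4.3.3 by limma 3.58.1 (lmFit, eBayes with a trend, two-sided, Benjamini-Hochberg over all genes, threshold 0.05), and likewise over all probe sets. Probe sets within genes, for genes and probe sets above the median, were tested with treat at a minimum difference of 1 and no trend. The steps were tested on simulated data. The simulation drew genes independently and shifted all arrays of a label alike. It therefore does not cover a label whose arrays differ among themselves, such as ES1 to ES12 and ES13 to ES14. Groups came from the strain label. Since the strain label follows the title order, strain and any batch that was not recorded cannot be told apart. High granulocyte markers occurred only in ES1 to ES12, all labelled 129S2/SvPas. Strain and cell makeup therefore cannot be told apart in the label differences either. Whether the samples are separate cultures or animals is not stated, and the p-values therefore describe the spread among these samples alone, possibly a technical one. No 2 arrays held identical values.

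All measured members are named, and up to 4 genes of each other list past the threshold with the largest difference. Members, title runs, lists and markers were chosen with earlier results of these data known. Correlations within ES1 to ES12 were planned but are not given, since the arrays fell into separate groups for the leading genes. Alternatives covered the summary of probe sets, scaling, filters, eBayes settings and arrays left out.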

Additional observations from a re-analysis of the deposited data

How the results depend on the processing

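With 1 array left out in turn, the count of higher members ranged from 12 to 14 and that of lower members from 6 to 8, and the signs that changed were of uncalled members near 0: Pkm (-0.044 to 0.019), Egln1 (-0.0029 to 0.20), Ankrd37 (-0.074 to 0.027) and P4ha1 (-0.21 to 0.030). Without ES1 to ES12, which leaves 2 arrays in a label, higher and lower counts were 0 and 0 for the members and 0 and 0 for the other pathway genes (29 and 21 with all arrays). There the sign turned for 25 members: Slc2a1 0.49, Slc2a3 0.46, Hk1 -1.62, Hk2 -0.29, Hk3 -0.23, Gpi1 -0.12, Pfkp -0.81, Pfkfb3 -1.37, Pfkfb4 -0.70, Aldoa -0.45, Aldoc -0.94, Tpi1 -0.65, Pgk1 -0.59, Pgam1 -0.12, Eno1 -0.019, Ldha -0.16, Pdk1 -1.08, Bnip3 -1.27, Egln1 -0.64, Car9 -0.063, Ndrg1 -0.44, Vegfa -0.28, Higd1a -0.46, Ero1l -0.59 and Epas1 0.27. Uncalled members also changed sign elsewhere. Pkm was 0.072 (median of all its probe sets), 0.15 (their mean), 0.12 (arrays centred), 0.059 (array weights) and 0.019 (without ES13 and ES14). Pdk1 was -0.071 (median), -0.090 (mean) and -0.040 (quantile normalization), and Egln1 -0.11 (median) and -0.025 (quantile). Ankrd37 was 0.11 (centred), 0.10 (quantile) and 0.015 (without ES13 and ES14), and P4ha1 0.057 (centred), 0.036 (weights) and 0.062 (without ES13 and ES14). The count of member probe sets called within their gene was 3, but 176 with no minimum difference and 13 without ES13 and ES14. Called members that lost the call with the full set of arrays were Pgam1 and Hif1a as stated, and these with Vegfa at a threshold of 0.01. Centring gave 17 higher members, adding Tpi1, Pgk1, Ldha, Bnip3 and Higd1a, and array weights 17 higher, adding Hk2, Tpi1, Pgk1, Ldha and Bnip3, and 8 lower, adding Slc2a1 and Slc2a3. The median over all probe sets added Bnip3 and Higd1a, the mean Pgk1, Eno1 and Higd1a, and quantile normalization Slc2a1 and Higd1a. No paired analysis was possible because the titles give each array its own number. The causes of these changes were not tested. Probe sets near the array median limit what can be said of Car9, Eno2, Higd1a, P4ha2 and Epas1. The same holds for Hk3 in ES13 to ES26 (5.75 to 7.47) and for Ldhb in ES1 to ES12 (5.86 to 8.08).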
